A study of Mus musculus with 35 samples.

Results

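The genes of TGF-beta signalling described here are 8 of the 21631 protein-coding genes of the mouse gene table: the ligand genes Tgfb1, Tgfb2 and Tgfb3, the receptor genes Tgfbr1 and Tgfbr2, the effector gene Smad3, the inhibitor gene Smad7, and Tgfb1i1, a gene induced by TGF-beta. The genes were taken by name, and every peak over a gene or within 50 kb of either end was assigned to it. These 8 windows held 1264 of the 902871 peaks in 22 peak lists. The lists came from chromatin immunoprecipitation followed by sequencing (ChIP-seq) during reprogramming of mouse embryonic fibroblasts (MEF) to induced pluripotent stem cells, in 12 libraries for H3K27ac (histone H3 carrying an acetyl group on lysine 27, as found at promoters and enhancers in use) and 10 for the transcription factor KLF4. The study asked where KLF4 binds along this path and how its sites relate to active chromatin. MEF came from mice with a polycistronic OKSM cassette (coding for OCT4, KLF4, SOX2 and MYC) in the Col1a1 locus and the doxycycline-responsive activator M2rtTA in the Rosa26 locus, and the factors are made only under doxycycline. Day 3, day 6 and day 9 cells were such fibroblasts grown in ESC medium to which doxycycline (1 µg/ml) and ascorbic acid (50 µg/ml) were added. The day 3 cells were an unsorted population, and the cells of days 6 and 9 had been sorted for the surface marker SSEA1. The pluripotent reference was the embryonic stem cell (ESC) line V6.5, grown with serum and LIF on irradiated feeder cells, and 2 further KLF4 libraries came from V6.5 cells that also received 1 µM MEK inhibitor and 3 µM GSK3 inhibitor, here called 2i.

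TGF-beta is secreted in a latent form and, once freed, brings together a type II receptor (TGFBR2) and a type I receptor (TGFBR1). The type I receptor phosphorylates SMAD2 and SMAD3, which enter the nucleus with SMAD4 and act with other factors at target genes, while SMAD7, itself a target, blocks the receptors and marks them for degradation. In fibroblasts the pathway maintains matrix production and a mesenchymal state, and its inhibition is known to favour reprogramming.

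Day 3 and day 6 had 3 H3K27ac libraries each, and MEF, day 9 and ESC had 2 each. For KLF4 every stage (the 3 reprogramming days, serum ESC and 2i) had 2 libraries. The labels put all MEF and ESC H3K27ac libraries in batch DG-3458 and both day 9 libraries in batch EA-3702, and both batches hold day 3 and day 6 libraries. For KLF4 the serum ESC libraries are the only ones of batches EA-2697 and EA-2643, so stage and batch cannot be told apart there. H3K27ac lists held 17493 to 88347 peaks covering 9.21 to 83.5 Mb, the shortest at day 6, and KLF4 lists 21129 to 34640 peaks covering 4.45 to 15.2 Mb. The files give no read counts, so sequencing depth is unknown and a window without a peak is not a window without signal. The labelled cells carried their markers: all 8 fibroblast genes were marked in each MEF library (139.2 to 139.7 kb of H3K27ac peaks in all) against 4 to 5 in ESC (2.42 to 3.56 kb), and all 8 pluripotency genes in each ESC library against 2 in MEF. At day 3 the number of fibroblast genes marked was 6 to 7, at day 6 it was 3 and at day 9 it was 3 to 4. The 6 epithelial genes were all marked at day 9 and in ESC, 3 of 6 in MEF and 2 to 4 of 6 at day 3. Endothelial genes were marked in 4 of 4 cases in MEF (7.44 to 9.42 kb) and 3 of 4 in ESC (23.98 to 24.16 kb), and macrophage genes in 3 of 4 cases in both (8.11 to 8.83 and 8.68 to 8.77 kb).

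The promoters of 5 of the 8 members were in a table of RefSeq promoters (assembly GRCm38.p6, 250 bases before and 50 bases after the start): Tgfb1, Tgfb2, Tgfbr1 with 2 starts, Tgfbr2 and Smad3. The 250 bases upstream of the start are printed for the 4 promoters whose 300 bases overlapped a KLF4 peak in at least 1 library: 9 of 10 libraries for Tgfb1, 9 for the first Tgfbr1 start, 5 for Smad3 and 1 for Tgfbr2, against 0 for Tgfb2 and for the second Tgfbr1 start. H3K27ac peaks overlapped the same bases in 6 of 12 libraries for Tgfb1, 11 for the first Tgfbr1 start, 11 for Smad3 and 12 for Tgfbr2, and in 6 for Tgfb2. They run 5′ to 3′ on the strand of the gene, and capitals mark matches to the KLF-type letters GGGNGTG, searched on both strands (CACNCCC on the other).
Tgfb1, chr7:25686752-25687001, plus strand: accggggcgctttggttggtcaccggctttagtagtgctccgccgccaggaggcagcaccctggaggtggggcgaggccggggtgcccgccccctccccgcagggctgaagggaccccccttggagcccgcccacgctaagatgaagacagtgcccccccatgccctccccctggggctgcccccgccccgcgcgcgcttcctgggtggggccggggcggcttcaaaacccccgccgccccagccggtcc
Tgfbr1 (first start), chr4:47352972-47353221, plus strand: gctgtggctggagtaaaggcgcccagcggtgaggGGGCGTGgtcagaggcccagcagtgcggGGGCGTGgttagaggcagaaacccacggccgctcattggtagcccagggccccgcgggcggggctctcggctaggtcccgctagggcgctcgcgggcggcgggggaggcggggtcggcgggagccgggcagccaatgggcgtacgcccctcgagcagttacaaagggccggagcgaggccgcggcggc
Tgfbr2, chr9:116175364-116175613, minus strand: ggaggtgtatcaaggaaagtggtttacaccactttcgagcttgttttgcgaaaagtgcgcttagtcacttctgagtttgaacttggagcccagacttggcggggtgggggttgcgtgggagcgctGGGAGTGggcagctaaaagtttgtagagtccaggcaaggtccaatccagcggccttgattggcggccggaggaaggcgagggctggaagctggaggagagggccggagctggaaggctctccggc
Smad3, chr9:63757995-63758244, minus strand: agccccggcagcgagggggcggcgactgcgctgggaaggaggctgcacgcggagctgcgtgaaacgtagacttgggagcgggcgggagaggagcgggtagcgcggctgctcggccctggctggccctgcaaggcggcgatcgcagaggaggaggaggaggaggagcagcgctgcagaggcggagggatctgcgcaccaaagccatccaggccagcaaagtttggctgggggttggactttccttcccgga
Over the 300 bases of the table the Tgfbr1 first start had 2 KLF-type matches, Tgfbr2 had 1, Tgfb2 had 2 overlapping ones, and neither Tgfb1 nor Smad3 had any. The second Tgfbr1 start, with a KLF4 peak in 0 of 10 libraries, also had 2. Of all 32619 promoters of this length, 29.0% held a match. The share of G and C was 77% for Tgfb1, 74.7% for the first Tgfbr1 start, 67.7% for Smad3, 59.0% for Tgfbr2 and 54.3% for Tgfb2, against a median of 53.0%. The SMAD box letters CAGAC, found in 49.5% of all promoters, had 2 matches in the Tgfb2 promoter, 1 in that of Tgfbr2 and 1 at the second Tgfbr1 start, and none in those of Tgfb1, Smad3 or the first Tgfbr1 start. Of these promoters none held the AP-1 letters TGANTCA, which 7.85% of all promoters held.

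Between fibroblasts and ESC, H3K27ac over the TGF-beta genes was mostly lower in ESC. The scaled covered length of a window (base pairs under peaks per Mb covered by the whole list, as log2 of the value plus 10) fell for Tgfb2, Tgfb3, Tgfbr1, Tgfbr2, Smad3 and Tgfb1i1, was higher in ESC for Tgfb1 (lower with 10 kb or 2.5 kb to each side), and differed by -0.14 ± 0.22 (SE) for Smad7. In limma's moderated test adjusted over all genes, 7 of 8 members thus passed an adjusted p of 0.05, 6 of them lower in ESC. Such changes were common: 63.4% of 19778 genes passed, 26.2% lower and 37.2% higher. The median difference of the members was -1.65, beside 0.19 over all genes. In a bulk sample, fewer cells with a mark and less of the mark per cell cannot be told apart. The summed H3K27ac of the 8 fibroblast markers went from 139.2 to 139.7 kb in MEF to 2.42 to 3.56 kb in ESC. That of the pluripotency markers went from 0.93 to 1.13 kb to 112.6 to 116.4 kb. That of the epithelial markers went from 7.1 to 7.7 kb to 46.97 kb, and that of the endothelial markers from 7.44 to 9.42 kb to 23.98 to 24.16 kb. Their part in these differences was not tested.

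**Figure D1:**
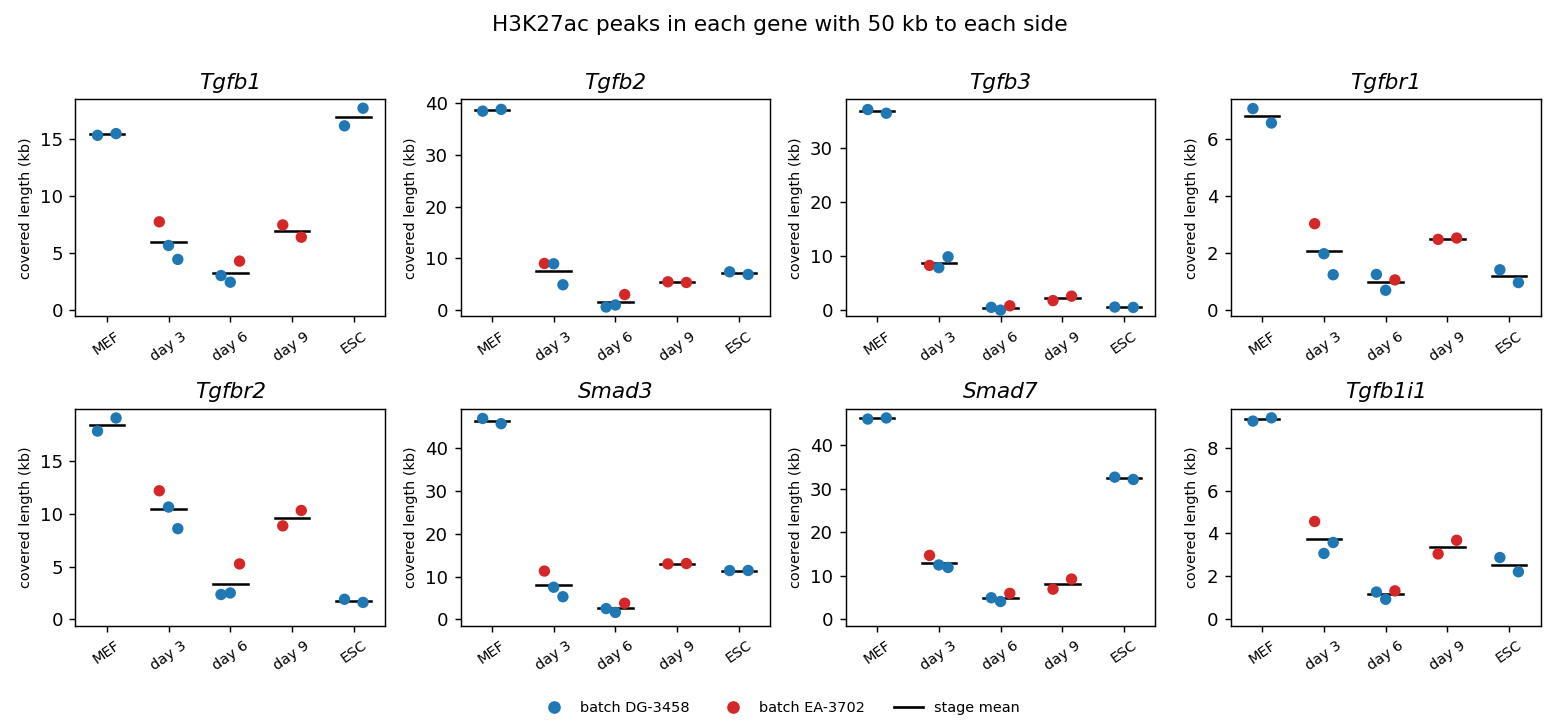
Kilobases covered by H3K27ac peaks in each gene with 50 kb to each side (vertical axis, not scaled by list length) by stage, 1 point per library coloured by batch, with a line at the stage mean. All 8 windows had every day 6 value below both MEF values, and ESC values above those of all day 3 and day 9 libraries are seen for Tgfb1 (16.2 and 17.7 kb) and Smad7 (32.7 and 32.1 kb) alone. The day 6 lists were the shortest. Scaled by list length, the day 6 mean (log2) was above that of MEF for Tgfb1 (8.05 against 7.61) and Tgfbr2 (8.04 against 7.86). It was below that of MEF for the other members.

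The steps along the way differed. From MEF to day 3, 3 of 8 members passed (47.9% of genes, 29.2% higher and 18.7% lower): Tgfb2 and Smad3 fell and Tgfbr2 rose (it was lower without scaling by list length), with a member median of -0.33 beside 0.067 over all genes. The summed H3K27ac of the fibroblast markers went from 139.2 to 139.7 kb in MEF to 32.4 to 49.1 kb at day 3. That of the epithelial markers went from 7.1 to 7.7 kb to 0.63 to 3.92 kb. That of the endothelial markers went from 7.44 to 9.42 kb to 3.59 to 5.82 kb, and their part in the result was not tested. From day 3 to day 9, 6 of 8 fell and none rose, where 36.6% of genes passed, 24.8% higher and 11.9% lower at day 9. The member median was -0.77 beside 0.13. Over the same step the summed H3K27ac of the fibroblast markers went from 32.4 to 49.1 kb at day 3 to 5.46 to 7.59 kb at day 9, and that of the epithelial markers from 0.63 to 3.92 kb to 41.8 to 45.1 kb, and their part in the result was not tested. From day 9 to ESC, 5 of 8 passed (52.8% of genes, 22% higher and 30.8% lower in ESC), with Tgfb1 and Smad7 higher and Tgfbr1, Tgfbr2 and Smad3 lower in ESC, and the member median was -0.60 beside -0.17. The summed H3K27ac of the pluripotency markers went over this step from 20.0 to 20.2 kb at day 9 to 112.6 to 116.4 kb in ESC, that of the endothelial markers from 5.3 to 6.08 kb to 23.98 to 24.16 kb, and that of the fibroblast markers from 5.46 to 7.59 kb to 2.42 to 3.56 kb, and their part in the result was not tested. The day 3 to day 9 step coincides with the SSEA1 sort, and the last step with a change of batch. Both counts in which day 9 enters moved with single libraries. The share of all genes that passed in those fits is not given, so these moves are not set apart from those of all genes. Without day 9 library 1 or library 2 the day 3 to day 9 count was 2 in each case, without the second day 3 library of DG-3458 it was 3, and the count from day 9 to ESC was 3 without either day 9 library or the second ESC library. Without scaling by list length all 8 members were lower at day 3 than in MEF and 2 passed between day 3 and day 9. Most called genes then moved 1 way. From MEF to day 3 the median over all genes was -1.01, with 2.38% of called genes higher. From day 3 to day 9 it was 0.713, with 94.3% higher.

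**Figure D2:**
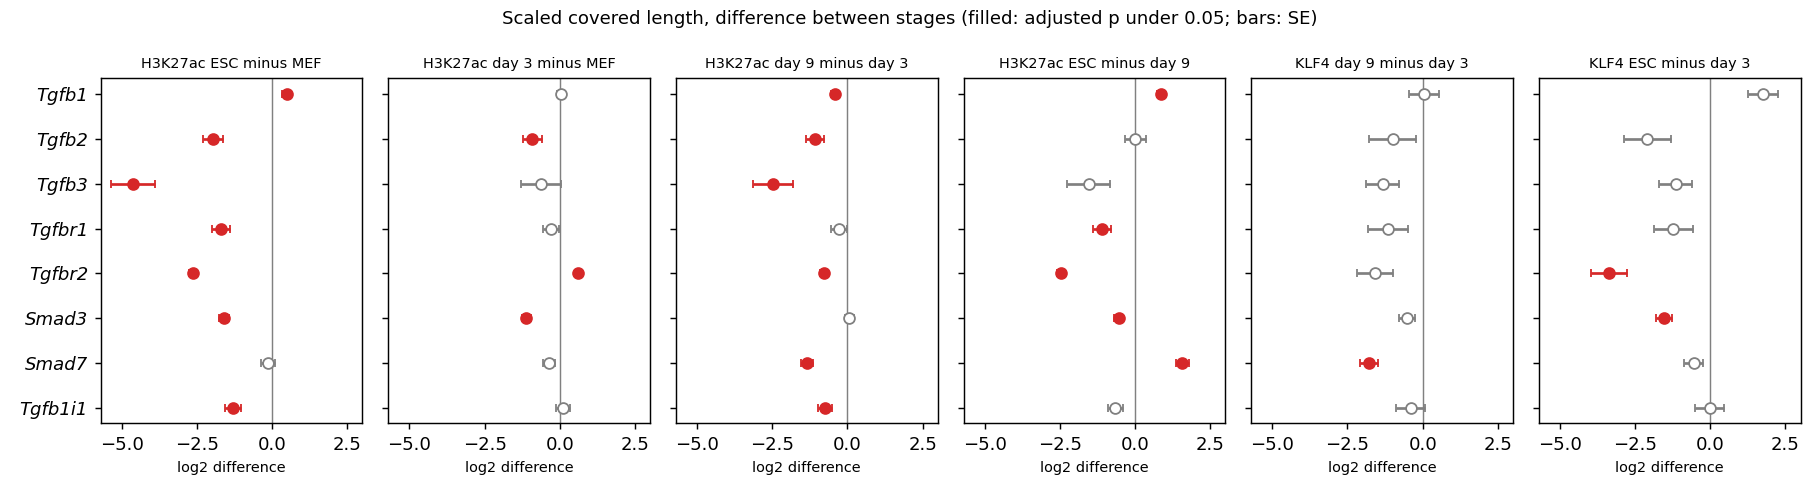
Log2 difference in scaled covered length (horizontal axis) for each member in the 6 comparisons, with bars for the standard error and filled points for an adjusted p under 0.05 in limma's moderated test. In the comparison of ESC with MEF 6 filled points lie left of 0 and Tgfb1 lies right (left with narrower windows), and for KLF4 there is 1 filled point between day 3 and day 9 and 2 between day 3 and ESC.

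KLF4 peaks over the same windows were sparser, and fewer comparisons passed. Smad7 alone fell from day 3 to day 9 (1 of 8 members, where 3.22% of 18861 genes passed, 1.77% higher and 1.45% lower), and Tgfbr2 and Smad3 fell from day 3 to ESC (2 of 8, 10.9% of genes, with 6.51% higher and 4.42% lower in ESC). The member medians were -1.07 and -1.18, beside 0.047 and 0.13 over all genes. Both comparisons use the same day 3 libraries, and in each the count depends on single libraries. For fits without a library, the result over all genes is given only where no gene passed. The first count was 0 without the DG-4040 day 3 library or without either day 9 library, and the second was 0 without either day 3 library or without ESC library EA-2697. In these fits with a count of 0, 1 to 2 and 3 to 4 members had an unadjusted p under 0.05 in limma. Without either day 9 library no gene of all passed in limma's test, where 2242 and 2331 had an unadjusted p under 0.05, and with batch as a covariate no gene passed and 4178 did so, 2 of them members.

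**Figure D3:**
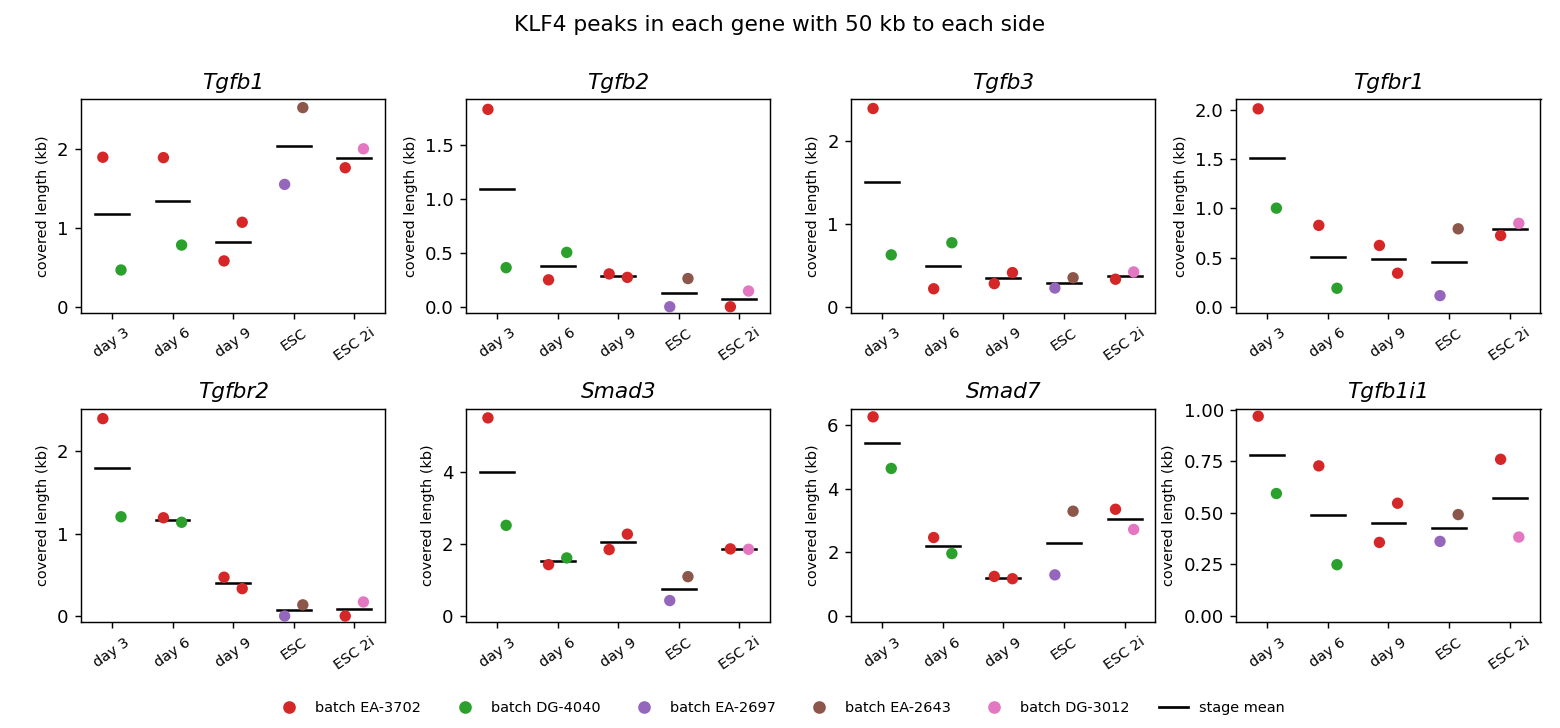
Kilobases covered by KLF4 peaks in each gene with 50 kb to each side (vertical axis, not scaled) by stage, 1 point per library coloured by batch, with a line at the stage mean. The day 3 library of batch EA-3702 was the highest of its stage for all 8 genes, and Tgfbr2 went from 1.21 and 2.40 kb at day 3 to at most 0.136 kb in serum ESC. That EA-3702 list covered 15.2 Mb, against 8.17 Mb for the DG-4040 day 3 list. Scaled by list length (log2), DG-4040 was the higher for Smad7 (9.17 against 8.72) and Tgfb1i1 (6.37 against 6.21), and EA-3702 for the other members.

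The merged stage peaks gave 136 H3K27ac regions in the 8 windows of 106528 in all (a region needs a peak in at least 2 libraries of some stage). Of these, 76 (55.9%) had a peak in every MEF and no ESC library, against 39.4% of all regions, 22 (16.2%) in every ESC and no MEF library, against 29.6%, and 14 (10.3%) in all 12 libraries, against 7.74%. KLF4 gave 42 regions of 37138, of which 13 (31.0%) were in both day 3 and no serum ESC library, against 19.4%, 9 (21.4%) in both serum ESC and no day 3 library, against 15.6%, and 3 (7.14%) in all 10 libraries, against 11.3%. No test was made of these shares, and the counts moved when single libraries were left out. Where a stage then kept 1 library, a peak in it was enough for a region and counted as every library of that stage. Such counts follow a looser rule, so their rises do not measure dependence on the library left out. MEF without ESC became 124 and 121 without MEF library 1 or 2, and ESC without MEF became 40 and 35 without ESC library 1 or 2. For KLF4, all regions numbered 67 and day 3 without serum ESC 37 without the DG-4040 day 3 library, day 3 without serum ESC was 20 without ESC library EA-2643, and serum ESC without day 3 was 14 without EA-2697. The shares over all regions were not recomputed for these settings. KLF4 regions with a peak in both libraries of a stage lay in an H3K27ac region of that stage in 18 of 29 cases at day 3 (62.1%), 9 of 14 at day 6 (64.3%), 10 of 13 at day 9 (76.9%) and 16 of 19 in ESC (84.2%). Over all KLF4 regions the shares were 66.1%, 52.8%, 79.2% and 77.3%.

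Among the ligands, Tgfb1 codes for the widely expressed TGF-beta 1 (chr7:25687002-25705077, GRCm38), in a dense stretch with 6 other genes in its window (Bckdha, Exosc5, Tmem91, B9d2, Ccdc97 and Hnrnpul1). H3K27ac peaks covered 15.4 and 15.5 kb of the window in MEF, 7.76, 5.68 and 4.46 kb at day 3, 3.04, 2.45 and 4.31 kb at day 6, 7.49 and 6.41 kb at day 9, and 16.2 and 17.7 kb in ESC. Here and below the day 3 values begin with the EA-3702 library, followed by libraries 1 and 2 of DG-3458, and the day 6 values end with EA-3702. In unscaled kb both ESC values lay above both MEF values, and all day 3, day 6 and day 9 values lay below them. With scaling (log2), all day 3 values (7.615 to 7.728) lay above both MEF values (7.612 each). The scaled day 6 values (7.82 to 8.22) lay above MEF and overlapped ESC (7.99 and 8.20). Only the day 9 values (7.35 and 7.12) lay below MEF. The scaled difference between ESC and MEF was 0.49 ± 0.15 (SE, adjusted p = 0.0171), but with 10 kb to each side it was -1.65 (adjusted p = 0.00131) and with 2.5 kb -1.46 (adjusted p = 0.00313), so its direction depends on the window. The higher value in the 50 kb window was also lost without either MEF library (adjusted p = 0.0685 and 0.0682), without the second ESC library (0.13) and without scaling (0.712).

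The regions show where the Tgfb1 window differs. Of its 15 H3K27ac regions 6 were in both ESC and no MEF library, all of them upstream over Bckdha, Exosc5 and Tmem91. The widest, chr7:25666738-25672051, covered 4.81 and 5.20 kb in the ESC libraries and 0.801 kb in 1 day 9 library. The start region of the gene itself, chr7:25686765-25690038, covered 2.90 and 2.85 kb in MEF, 0.382 and 0.310 kb in 2 of 3 day 3 libraries, none at days 6 and 9, and 0.622 and 0.523 kb in ESC. The 4 regions in all 12 libraries lay over Bckdha and Exosc5 (chr7:25657636-25660698), B9d2 (chr7:25680165-25681445), Ccdc97 (chr7:25717734-25720045) and Hnrnpul1 (chr7:25752935-25756294). From day 3 to day 9 the scaled value fell by 0.42 ± 0.13 (SE, adjusted p = 0.0363 in limma), a call lost without any 1 of the 3 day 3 or 2 day 9 libraries (adjusted p from 0.0552 to 0.235) and turned to 0.23 without scaling. From day 9 to ESC it rose by 0.86 ± 0.15 (adjusted p = 0.00114).

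KLF4 was at the start of Tgfb1 in 9 of 10 libraries, more stages than H3K27ac. The region chr7:25686693-25687332, which overlaps the first promoter printed above, had a peak in both day 3, both day 6, 1 of 2 day 9, both ESC and both 2i libraries. Over the whole window KLF4 peaks covered 1.90 and 0.466 kb at day 3 (EA-3702, then DG-4040), 1.89 and 0.782 kb at day 6, 0.581 and 1.07 kb at day 9, 1.55 and 2.52 kb in ESC (EA-2697, then EA-2643) and 1.76 and 2.00 kb in 2i (EA-3702, then DG-3012). The unscaled ESC values lay within and above the day 3 range. The scaled difference between ESC and day 3 was 1.77 ± 0.49 (SE) and did not pass (adjusted p = 0.061). Of the 7 KLF4 regions 4 were in both serum ESC and no day 3 library, at 31.4 kb (chr7:25655495-25655715), 27.9 kb (chr7:25658973-25659297), 17.7 kb (chr7:25668876-25669709) and 17.1 kb (chr7:25669712-25670066) upstream, and all lay over the neighbouring genes Bckdha, Exosc5 and Tmem91. The region at 17.7 kb was also in both 2i libraries.

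Tgfb2 codes for TGF-beta 2, a ligand made by many mesenchymal tissues (chr1:186622787-186709697). The H3K27ac peaks of its window covered 38.5 and 38.8 kb in MEF, 9.02, 8.96 and 4.90 kb at day 3, 0.606, 0.989 and 3.01 kb at day 6, 5.48 and 5.35 kb at day 9, and 7.40 and 6.89 kb in ESC. In unscaled kb every later library lay far below both MEF libraries, and the ESC values lay within the day 3 range. With scaling (log2), the ESC values (6.93 and 6.92) lay below all day 3 values (7.76 to 8.25). The scaled value fell by 1.97 ± 0.33 from MEF to ESC (SE, adjusted p = 0.000818 in limma), by 0.91 ± 0.31 from MEF to day 3 (adjusted p = 0.0357) and by 1.07 ± 0.31 from day 3 to day 9 (adjusted p = 0.0237), and between day 9 and ESC it differed by 0.02 ± 0.33 (adjusted p = 0.991). The second of these calls was lost without either MEF library (adjusted p = 0.133 each), the EA-3702 day 3 library (0.0745) or the second DG-3458 day 3 library (0.0978). The third was lost without the first DG-3458 day 3 library (0.0704) or either day 9 library (0.1 and 0.113), and without scaling (0.458).

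Of the 24 H3K27ac regions at Tgfb2, 17 were in both MEF and no ESC library. The widest, chr1:186576494-186588575, spans 12082 bp at 123 kb downstream of the start, and was in all 3 day 3 libraries and in none from day 6 on. The next in width were chr1:186674535-186677448 inside the gene, in MEF alone, chr1:186609156-186611664 downstream of it, in 3 day 3 and both day 9 libraries as well, and chr1:186740680-186743188, 35.9 kb upstream over Rrp15. The region around the start, chr1:186701968-186706663, had a peak in all 12 libraries, as did chr1:186747992-186750270 over Rrp15. Within 1 kb of the start itself a peak was listed in 10 of 12, missing in both day 6 libraries of DG-3458, which had 0.235 and 0.479 kb in the wider region. The 4 regions in both ESC and no MEF library lay at chr1:186597906-186598377 and, over Rrp15, at chr1:186728497-186728957, chr1:186729854-186732277 and chr1:186735398-186736313.

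KLF4 had 1 region at Tgfb2, chr1:186622764-186623193 at the far end of the gene, with a peak in all 6 libraries of days 3, 6 and 9 and in none of the 4 ESC libraries, serum or 2i. It did not overlap an H3K27ac region of its stage at days 3, 6 or 9. The window held 1.83 and 0.363 kb of KLF4 peaks at day 3, 0.250 and 0.505 kb at day 6, 0.305 and 0.273 kb at day 9, 0 and 0.262 kb in ESC and 0 and 0.146 kb in 2i. The ESC and day 3 values did not overlap, and the scaled difference of -2.09 ± 0.78 (SE) did not pass (adjusted p = 0.13 in limma).

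Tgfb3, the gene of the third TGF-beta ligand (chr12:86056743-86079041), had the largest difference between ESC and MEF of the 8 members. Its H3K27ac peaks covered 37.2 and 36.5 kb in MEF, 8.29, 7.87 and 9.88 kb at day 3, 0.513, 0 and 0.802 kb at day 6, 1.76 and 2.58 kb at day 9, and 0.566 and 0.505 kb in ESC. In unscaled kb MEF, day 3, day 9 and the pair of day 6 and ESC were separated without overlap, and day 6 and ESC overlapped each other. With scaling (log2), day 6 (3.32 to 5.88) also overlapped day 9 (5.52 and 5.96). The covered share of the window stood at 99.5 to 99.6 on a percentile scale of all genes in MEF and 19.1 to 19.4 in ESC. Scaled by list length, coverage fell by 4.63 ± 0.73 from MEF to ESC (SE, adjusted p = 0.000518 in limma). It differed by -0.62 ± 0.66 between day 3 and MEF (adjusted p = 0.5), where the day 3 lists covered 23.8 to 38.4 Mb against 82.8 and 83.5 Mb, and fell by 2.46 ± 0.66 from day 3 to day 9 (adjusted p = 0.0188). The last call was lost without the second DG-3458 day 3 library (adjusted p = 0.0555) or either day 9 library (0.115 and 0.0681).

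Of the 16 H3K27ac regions at Tgfb3, 15 were in both MEF and no ESC library and none was in all 12 libraries. The exception, chr12:86075943-86084017 at the gene end that faces Ift43, covered 7.54 and 7.96 kb in MEF, 2.68 to 3.49 kb at day 3, 0.309 kb in 1 of 3 day 6 libraries, 1.07 and 1.84 kb at day 9, and 0.566 and 0.505 kb in ESC, where it held all H3K27ac of the window. The widest of the 15 was chr12:86099674-86105743 over Ift43, still present in all day 3, 1 of 3 day 6 and both day 9 libraries. The next were chr12:86011906-86016614 over Ttll5, in MEF alone, chr12:86089280-86093905 over Ift43, in MEF and all day 3 libraries, and chr12:86022046-86025475 over Ttll5, in MEF alone. KLF4 regions at chr12:86048854-86049314 (also in 1 of 2 day 6 libraries) and chr12:86104226-86104727 were in both day 3 and no ESC library, and the second lies in the widest H3K27ac region just named. KLF4 covered 2.39 and 0.626 kb at day 3, 0.217 and 0.772 kb at day 6, 0.279 and 0.412 kb at day 9, 0.226 and 0.35 kb in ESC and 0.332 and 0.420 kb in 2i. Neither KLF4 comparison passed, with differences of -1.33 ± 0.55 (SE) at day 9 and -1.14 ± 0.55 in ESC against day 3 (adjusted p = 0.246 and 0.221 in limma).

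Tgfbr1, the gene of the type I receptor kinase (chr4:47353222-47414926), had an H3K27ac peak within 1 kb of its first start in all 12 libraries and the lowest covered share of the 8 windows in MEF. Peaks covered 7.05 and 6.55 kb of its window in MEF, 3.02, 1.97 and 1.24 kb at day 3, 1.25, 0.695 and 1.06 kb at day 6, 2.48 and 2.52 kb at day 9, and 1.41 and 0.964 kb in ESC. In unscaled kb MEF stood above all other libraries, and ESC overlapped day 3 and day 6. With scaling (log2), the first DG-3458 day 6 library (7.01) lay above both MEF libraries (6.57 and 6.47). The scaled ESC values (4.97 and 4.67) lay below all others. The covered share of the window was 4.36% and 4.05% in MEF, where Smad7 had 35.8% and 36.0%. Among all genes the Tgfbr1 share in MEF stood at percentiles 51.2 and 48.6. The scaled value fell by 1.70 ± 0.30 from MEF to ESC (SE, adjusted p = 0.000943 in limma) and by 1.11 ± 0.30 from day 9 to ESC (adjusted p = 0.0126). The last call was lost without either day 9 library (adjusted p = 0.0546 and 0.0553) or the second ESC library (0.0803). Between MEF and day 3 and between day 3 and day 9 the differences were -0.30 ± 0.27 and -0.29 ± 0.27 (adjusted p = 0.404 and 0.45).

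Its start region, chr4:47351638-47354343, was in all 12 H3K27ac libraries, and the other 5 regions, chr4:47310129-47311561 over Col15a1, chr4:47328142-47328609, chr4:47406525-47407257, chr4:47407380-47408064 and chr4:47437259-47438604, were all in both MEF and no ESC library. KLF4 was at the same start, chr4:47352453-47353835, in 9 of 10 libraries, missing in ESC library EA-2697, the shortest KLF4 list. This is the promoter printed with 2 KLF-type matches. KLF4 regions at chr4:47345817-47346148 and chr4:47399726-47399998 were at day 3 alone, and chr4:47437557-47437725 was in both serum ESC libraries alone. The window held 2.01 and 1.00 kb of KLF4 peaks at day 3, 0.827 and 0.188 kb at day 6, 0.623 and 0.341 kb at day 9, 0.113 and 0.792 kb in ESC and 0.724 and 0.848 kb in 2i. Day 3 lay above every other stage, and the differences of -1.15 ± 0.66 (SE) at day 9 and -1.22 ± 0.66 in ESC did not pass (adjusted p = 0.409 and 0.277 in limma).

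Tgfbr2, the gene of the type II receptor that binds the ligand (chr9:116087695-116175363), kept H3K27ac at its start in ESC and lacked it there at most distal regions. Peaks of H3K27ac covered 17.9 and 19.1 kb in MEF, 12.2, 10.7 and 8.61 kb at day 3, 2.36, 2.51 and 5.27 kb at day 6, 8.87 and 10.3 kb at day 9, and 1.91 and 1.61 kb in ESC. In unscaled kb ESC lay below every other library, and day 9 lay within the day 3 range. Scaled by list length, coverage fell by 2.64 ± 0.12 from MEF to ESC (SE, adjusted p = 2.67e-07 in limma) and by 2.46 ± 0.12 from day 9 to ESC (adjusted p = 6.87e-07). Between day 3 and day 9 it fell by 0.78 ± 0.11 (adjusted p = 0.000762), and by 0.68 between day 9 and the day 3 library of the same batch, but by 0.11 (adjusted p = 0.792) without scaling. From MEF to day 3 it rose by 0.60 ± 0.11 (adjusted p = 0.00221), relative to the shorter day 3 lists. Without scaling the direction was reversed, with a fall of 0.81 (adjusted p = 0.0349).

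Of the 11 H3K27ac regions at Tgfbr2, 1 was in all 12 libraries, the start region chr9:116173032-116176526. It covered 2.96 and 2.92 kb in MEF, 2.00 to 3.23 kb at day 3, 1.15 to 1.53 kb at day 6, 2.01 and 1.88 kb at day 9, and 1.27 and 0.887 kb in ESC. The upstream region chr9:116217356-116222931, 44.8 kb before the start, covered 4.13 and 4.47 kb in MEF, 2.36, 2.53 and 2.29 kb at day 3, 1.01, 0.569 and 2.02 kb at day 6, 2.25 and 2.3 kb at day 9, and nothing in ESC. The region chr9:116144132-116148536 inside the gene, 29.0 kb after the start, likewise had a peak in the 10 libraries of MEF to day 9 and in neither ESC library. The remaining regions of the MEF-without-ESC class were chr9:116115111-116117154, chr9:116149393-116151386 and chr9:116152020-116154562, all inside the gene.

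KLF4 was found at the upstream site in the reprogramming cells and not in ESC. The region chr9:116218480-116219213, inside the upstream H3K27ac region, covered 0.701 and 0.536 kb at day 3, 0.696 and 0.455 kb at day 6, and 0.284 and 0.333 kb at day 9, and no peak was there in the 4 serum ESC and 2i libraries. The authors' fold for this peak was 13.4 and 7.99 at day 3, 9.24 and 7.20 at day 6, and 4.75 and 4.06 at day 9, each on the scale of its own list. A second region 1.73 kb inside the gene, chr9:116173413-116173855, was in both day 3, both day 6 and 1 of 2 day 9 libraries and in no ESC or 2i library. At the printed promoter itself a KLF4 peak was listed in 1 library, a 2i one. Over the window KLF4 peaks covered 2.40 and 1.21 kb at day 3, 1.19 and 1.14 kb at day 6, 0.472 and 0.333 kb at day 9, 0 and 0.136 kb in ESC and 0 and 0.171 kb in 2i. Day 3 and day 6 lay above day 9, and day 9 above all ESC libraries. The scaled value fell by 3.36 ± 0.60 from day 3 to ESC (SE, adjusted p = 0.0153 in limma), and the difference of -1.58 ± 0.60 at day 9 did not pass (adjusted p = 0.211). The ESC call was lost without either day 3 library (adjusted p = 0.0588 and 0.0713) or ESC library EA-2697 (0.0892), and with 10 kb to each side, which leaves out the upstream site (0.0542).

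**Figure D4:**
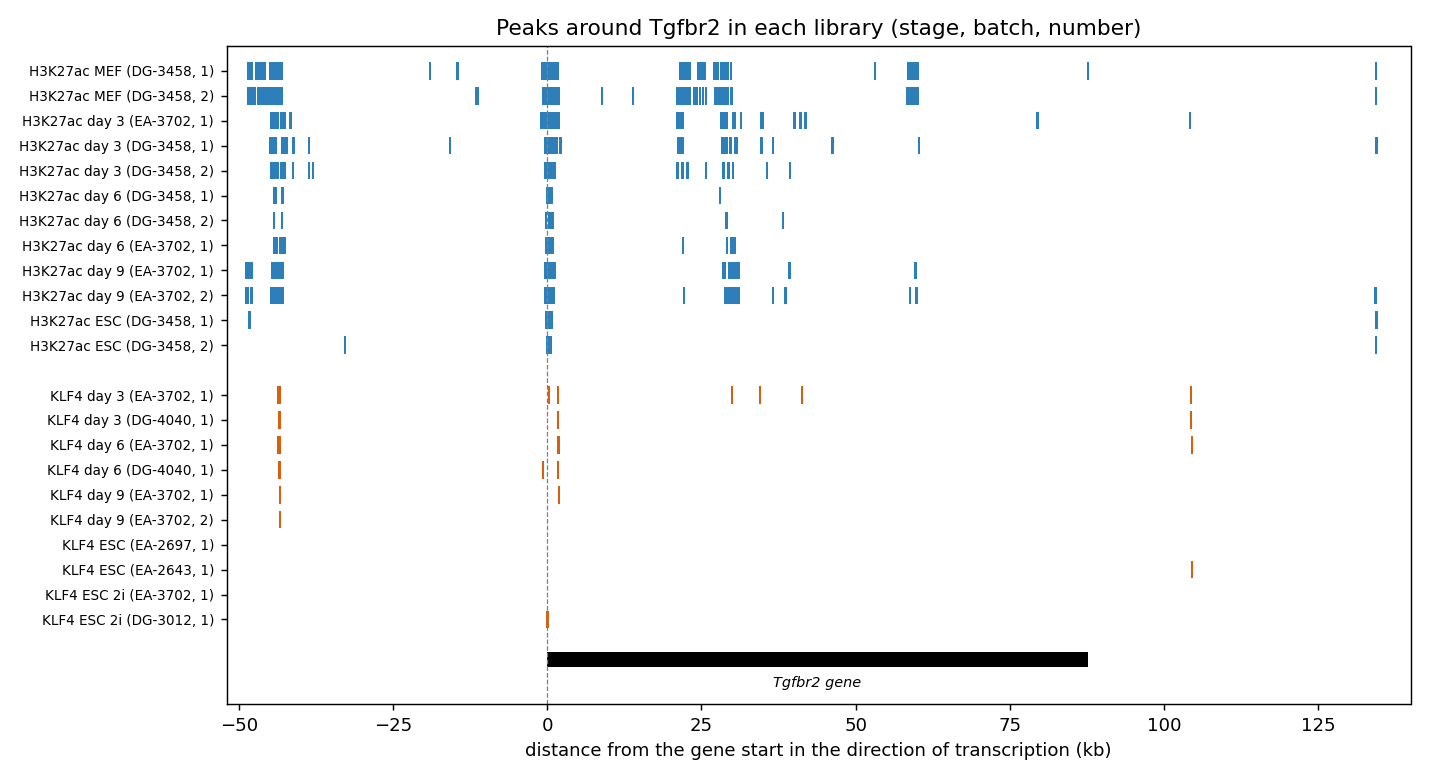
Peaks around Tgfbr2 in each of the 22 libraries (rows, with stage, batch and number), by distance in kb from the gene start in the direction of transcription. H3K27ac is in blue, KLF4 in orange and the gene a black bar. The start is marked in all 12 H3K27ac rows, and the upstream site (43.5 to 44.8 kb before the start) carries H3K27ac and KLF4 in the rows of day 3 to day 9 and neither in the ESC rows.

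Smad3 codes for the receptor-activated effector that binds DNA at SMAD boxes (chr9:63646766-63757994). Its window had 46.9 and 45.7 kb of H3K27ac peaks in MEF, 11.3, 7.5 and 5.29 kb at day 3, 2.52, 1.63 and 3.77 kb at day 6, 13.0 and 13.0 kb at day 9, and 11.4 and 11.4 kb in ESC. In unscaled kb MEF lay far above the rest, day 6 was lowest, and day 9 and ESC lay just above the highest day 3 value. With scaling (log2), MEF was still highest. The scaled values of day 9 (8.10 and 8.09) and ESC (7.51 and 7.59) lay below the highest day 3 value (8.25). The scaled ESC mean (7.55) lay below the day 6 mean (7.72). Scaled by list length, coverage fell by 1.60 ± 0.16 from MEF to ESC (SE, adjusted p = 3.06e-05 in limma) and by 1.11 ± 0.15 from MEF to day 3 (adjusted p = 0.00032). It differed by 0.06 ± 0.15 between day 9 and day 3 (adjusted p = 0.806), and fell by 0.55 ± 0.16 from day 9 to ESC (adjusted p = 0.0184). That last call was lost without any 1 of the 2 day 9 (0.0727 and 0.0684) or 2 ESC libraries (0.101 and 0.064), with batch as a covariate (0.124) and without scaling (0.731).

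Smad3 had the most H3K27ac regions of the 8 genes, 38, of which 23 were in both MEF and no ESC library. The widest of these were chr9:63665501-63669403 and chr9:63715423-63719170 inside the gene, chr9:63609264-63612732 over Aagab and chr9:63676888-63679681 inside the gene. The 4 regions in both ESC and no MEF library form a group 12.9 to 22.7 kb after the start: chr9:63744890-63745250, chr9:63740078-63741877, chr9:63739306-63739802 and chr9:63734377-63736197. The regions in all 12 libraries were the start, chr9:63754208-63759246, and the end shared by Iqch and Aagab, chr9:63601848-63603501. At 125 kb from the start, over Aagab, the region chr9:63631761-63634242, chosen after its values were seen, had no peak in MEF, 1.01, 0.444 and 0.294 kb at day 3, a peak in 2 of 3 day 6 libraries, 2.00 and 2.48 kb at day 9, and 0.290 kb in 1 ESC library.

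**Figure D5:**
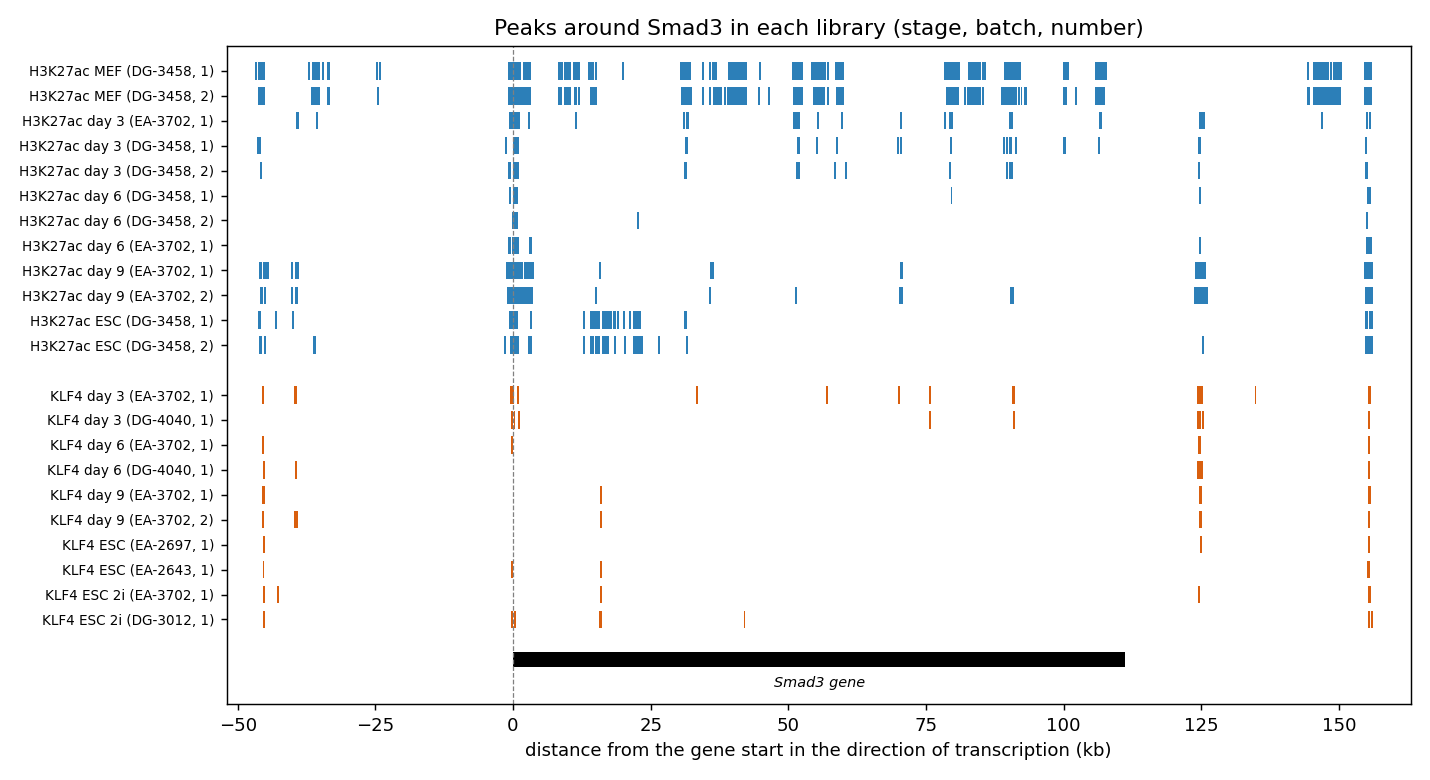
Peaks around Smad3 in each of the 22 libraries (rows, with stage, batch and number), by distance in kb from the gene start in the direction of transcription. H3K27ac is in blue, KLF4 in orange and the gene a black bar. MEF peaks spread along the gene, and KLF4 at 156 kb is in all 10 KLF4 rows. Those of ESC for H3K27ac gather at the start and 12.9 to 22.7 kb into the gene. Both ESC rows also have H3K27ac peaks about 31.4 and 155 kb after the start and 45.4 kb before it.

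Near Smad3, some KLF4 regions were in most libraries and others at few stages, and no test of a move between sites was made. The region chr9:63602035-63602811 at the end of Iqch and Aagab was in all 10 libraries. The region chr9:63803116-63803552, 45.3 kb upstream, was in 1 of 2 day 3 libraries and in both libraries of every other stage. Over Aagab, chr9:63632704-63633739 was in both libraries of days 3, 6 and 9, 1 ESC and 1 2i library. Regions at day 3 alone were chr9:63666849-63667327 and chr9:63682161-63682434 inside the gene and chr9:63756937-63757331 just after the start. At the start itself, chr9:63757640-63758550, which spans the printed promoter, peaks were listed in both day 3, 1 day 6, 1 ESC and 1 2i library. The region chr9:63741805-63742308, 15.9 kb after the start and next to the ESC group of H3K27ac, was in no day 3 or day 6 library and in both day 9, 1 of 2 ESC and both 2i libraries. In the window KLF4 peaks covered 5.49 and 2.52 kb at day 3, 1.43 and 1.61 kb at day 6, 1.84 and 2.27 kb at day 9, 0.429 and 1.09 kb in ESC and 1.86 and 1.85 kb in 2i. Day 3 lay above all others and serum ESC below. The scaled value fell by 1.54 ± 0.27 from day 3 to ESC (SE, adjusted p = 0.0145 in limma) and differed by -0.53 ± 0.27 at day 9 (adjusted p = 0.343). The ESC call was lost without either day 3 library (adjusted p = 0.0574 and 0.052), without ESC library EA-2697 (0.0774) and without scaling (0.0514).

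Smad7 codes for the inhibitory SMAD that TGF-beta induces to limit its own signal (chr18:75367365-75395935). By share of the window it had the most H3K27ac of the 8 genes in every MEF and ESC library. Peaks covered 46.0 and 46.3 kb in MEF, 14.7, 12.5 and 11.9 kb at day 3, 4.97, 4.11 and 5.98 kb at day 6, 6.94 and 9.26 kb at day 9, and 32.7 and 32.1 kb in ESC. By share of the window its percentile among all genes was 99.8 for both MEF libraries, from 96.5 to 97.5 for day 3, from 89.1 to 95 for day 6, 69.5 and 79.3 for day 9, and 98.0 and 98.1 for ESC. In unscaled kb ESC lay below MEF and above every reprogramming library without overlap. With scaling (log2), the second DG-3458 day 3 library (8.997) lay above the first ESC library (8.974). The scaled difference between ESC and MEF was -0.14 ± 0.22 (SE, adjusted p = 0.622 in limma). Counting peaks in place of covered length it was 0.82 (adjusted p = 0.049), and over equally long lists of top peaks it was -1.04 (adjusted p = 0.0051), so no direction is given. Scaled by list length, coverage fell by 1.34 ± 0.20 from day 3 to day 9 (adjusted p = 0.00109) and rose by 1.57 ± 0.22 from day 9 to ESC (adjusted p = 0.000422). Between day 3 and MEF it differed by -0.37 ± 0.20 (adjusted p = 0.177).

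Most of the Smad7 gene, all but its high-coordinate end, lies in 1 region of 29029 bp that had peaks in all 12 libraries, chr18:75364522-75393550. It was covered nearly whole in MEF, with 27.6 kb in each library, over 9.07 to 11.8 kb at day 3, 3.04 to 4.91 kb at day 6, 4.27 and 6.78 kb at day 9, and 11.8 and 14.5 kb in ESC. A second region in all 12 was chr18:75341121-75347961. Regions in both MEF and no ESC library numbered 6, the widest being chr18:75403695-75406523, chr18:75414859-75416330, chr18:75434105-75435352 over Ctif and chr18:75401696-75402719. Those in both ESC and no MEF library numbered 8, the widest being chr18:75328408-75331126, chr18:75359626-75360944, chr18:75349651-75350504 and chr18:75353668-75354521. Of the 8, 5 lie on the low-coordinate side of the gene and 3 on the other, and of the 6 MEF regions 1 lies on the low-coordinate side and 5 on the other.

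Smad7 also had the most KLF4 regions, 15. KLF4 peaks covered 6.26 and 4.64 kb of the window at day 3, 2.47 and 1.96 kb at day 6, 1.25 and 1.17 kb at day 9, 1.29 and 3.29 kb in ESC and 3.36 and 2.72 kb in 2i. Day 3 lay above all other libraries and day 9 below all others. The scaled value fell by 1.77 ± 0.30 from day 3 to day 9 (SE, adjusted p = 0.0267 in limma), and by 1.54 between day 9 and the day 3 library of the same batch. The call was lost without the DG-4040 day 3 library (adjusted p = 0.141), without either day 9 library (0.149 and 0.166), with batch as a covariate (0.109) and without scaling (0.101). Between day 3 and ESC the difference was -0.55 ± 0.30 (adjusted p = 0.282).

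The KLF4 region in all 10 libraries was chr18:75441737-75442356 over Ctif, and that at the low-coordinate end of Smad7, chr18:75366562-75367633, was in both day 3, both day 6, 1 of 2 day 9, 1 of 2 ESC and both 2i libraries. In both day 3 and no serum ESC library were chr18:75384996-75385356, chr18:75394628-75395205 and chr18:75410644-75410913, of which the second was again in both 2i libraries. In both serum ESC and no day 3 library were chr18:75345657-75345891, chr18:75375499-75375693, chr18:75380204-75380697 and chr18:75395322-75395520. The third of these was also in both day 9 and both 2i libraries.

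Tgfb1i1 codes for Hic-5, a focal adhesion protein and nuclear coactivator induced by TGF-beta (chr7:128246812-128255699), and lies among 6 other genes. H3K27ac peaks covered 9.23 and 9.38 kb of its window in MEF, 4.56, 3.07 and 3.58 kb at day 3, 1.27, 0.936 and 1.33 kb at day 6, 3.05 and 3.68 kb at day 9, and 2.88 and 2.22 kb in ESC. In unscaled kb MEF lay above all others, day 6 below all others, and ESC below both day 9 and all day 3 values. With scaling (log2), the day 3 mean (7.04) lay above the MEF mean (6.93). The scaled day 6 mean (6.70) lay above the means of day 9 (6.29) and ESC (5.63), and ESC was lowest. Scaled by list length, coverage fell by 1.30 ± 0.25 from MEF to ESC (SE, adjusted p = 0.00178 in limma) and by 0.75 ± 0.23 from day 3 to day 9 (adjusted p = 0.0318). The last call was lost without the EA-3702 day 3 library (adjusted p = 0.0575), the second DG-3458 day 3 library (0.0883) or either day 9 library (0.181 and 0.0815), with batch as a covariate (0.14) and without scaling (0.621). Between MEF and day 3 the difference was 0.11 ± 0.23 (adjusted p = 0.769), and between day 9 and ESC it was -0.66 ± 0.25 (adjusted p = 0.0541).

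The gene's own H3K27ac region, chr7:128245417-128248507, covered 2.88 and 3.07 kb in MEF, 1.88, 1.29 and 1.63 kb at day 3, 0.437 kb in 1 day 9 library, and had no peak at day 6 or in ESC. What remained in ESC lay over its neighbours: chr7:128236720-128239746 over 9130023H24Rik and Armc5 and chr7:128297281-128299530 over Rusf1 were in all 12 libraries. The other 2 regions, chr7:128243570-128244026 and chr7:128288695-128289268, were in MEF alone. The single KLF4 region of the window, chr7:128237935-128238747, lay over 9130023H24Rik and Armc5 and was in all 10 libraries. KLF4 covered 0.969 and 0.594 kb at day 3, 0.728 and 0.249 kb at day 6, 0.357 and 0.547 kb at day 9, 0.362 and 0.492 kb in ESC and 0.760 and 0.383 kb in 2i. In unscaled kb both day 3 values lay above those of day 9 and serum ESC and overlapped those of day 6 and 2i. With scaling (log2), ESC library EA-2697 (6.51) lay above both day 3 values (6.21 and 6.37). The scaled differences did not pass: they were, from day 3, -0.40 ± 0.49 (SE) at day 9 and -0.02 ± 0.49 in ESC (adjusted p = 0.715 and 0.999 in limma).

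Other genes of the pathway were taken in 4 lists. Of 13 genes for latency and activation of the ligand, 10 fell and 2 rose from MEF to ESC in H3K27ac, with a median difference of -2.4 beside 0.19 over all genes. Over all genes 63.4% passed in this comparison, 26.2% lower and 37.2% higher, and the counts of the other lists stand beside the same shares. Itgb8, a chain of an integrin that frees latent TGF-beta, had no peak in either ESC library (adjusted p = 8.03e-07 in limma), while Nrros, which anchors latent TGF-beta, rose by 1.87 ± 0.13 (SE, adjusted p = 2.9e-06) and Ltbp4, a latent TGF-beta binding protein, by 1.81 ± 0.16 (adjusted p = 1.38e-05). Of 7 other receptors and SMAD genes, 2 fell and 1 rose (median 0.08), so that 3 of 7 passed where 63.4% of all genes did. Tgfbr3, the coreceptor betaglycan, fell by 3.24 ± 0.14 (adjusted p = 1.91e-07), Acvr1b, an activin receptor, fell by 0.71 ± 0.16 (adjusted p = 0.00446), and Zfyve9, the SMAD anchor SARA, rose by 0.56 ± 0.22 (adjusted p = 0.0463).

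Of 9 genes for inhibitors and turnover, 4 fell and 3 rose (median -0.49), where 26.2% of all genes fell and 37.2% rose. Tgif1, a SMAD corepressor, rose by 2.16 ± 0.17 (SE, adjusted p = 6.09e-06 in limma), Ppm1a, a phosphatase of SMADs, rose by 1.66 ± 0.18 (adjusted p = 6.2e-05), and Smurf2, a ubiquitin ligase for receptors and SMADs, fell by 1.57 ± 0.20 (adjusted p = 0.000164). Of 12 target genes, 10 fell and 1 rose (median -1.48), where 26.2% of all genes fell and 37.2% rose. Postn, the matrix protein periostin, had no peak in either ESC library (adjusted p = 1.53e-07), Acta2, smooth muscle actin, fell by 4.51 ± 0.24 (adjusted p = 6.71e-07), and Cdkn2b, a cell cycle inhibitor, fell by 2.1 ± 0.14 (adjusted p = 2.95e-06). Acta2 and Postn are also textbook genes of activated fibroblasts.

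At the other steps the lists were split. From MEF to day 3, 9 genes for latency and activation fell and 3 rose, against 1 and 1 of the receptors and SMADs, 2 and 2 of the inhibitors, and 4 and 2 of the targets, where 18.7% of all genes fell and 29.2% rose. From day 3 to day 9, where 11.9% of all genes fell and 24.8% rose, 3 genes for latency and activation fell and 2 rose, and 2 of the receptors and SMADs fell and 1 rose. At this step the targets fell in 5 cases and rose in 0, while the inhibitors rose in 3 cases and fell in 1. Of the 12 targets 9 had an unadjusted p under 0.05 in limma. Among these, Fn1 (0.24) and Cdkn2b (0.32) were higher at day 9 and the rest lower. From day 9 to ESC, 5, 4, 5 and 4 genes of the lists, in the order given, fell and 2, 1, 3 and 2 rose, where 30.8% of all genes fell and 22% rose. No KLF4 value of any list passed between day 3 and day 9 in limma's test (3.22% of all genes), where 3 of 12, 2 of 7, 2 of 9 and 2 of 11 genes tested had an unadjusted p under 0.05. From day 3 to ESC, where KLF4 fell over 4.42% and rose over 6.51% of all genes, KLF4 over the windows of Itgb8 (difference -2.26 ± 0.53, adjusted p = 0.038), Thbs1, an activator of latent TGF-beta (-1.21 ± 0.30, 0.0437), Hmga2, a chromatin protein (-2.12 ± 0.40, 0.0188), and Tagln, a smooth muscle actin-binding protein (-1.30 ± 0.28, 0.0286), fell. KLF4 over Ltbp4 (1.41 ± 0.31, adjusted p = 0.0314), Tgif1 (1.21 ± 0.26, 0.0301) and Pmepa1, an inhibitor of SMAD activation (1.75 ± 0.44, 0.0459), rose.

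The genes most like each member in H3K27ac over the 12 libraries, by Pearson's r of the scaled values and leaving out neighbours, were Ythdc1 (0.952) and Gm50595 (0.940) for Tgfb1, Denn2b (0.966) and Tlr1 (0.960) for Tgfb2, Dnm3 (0.978) and Zfp469 (0.973) for Tgfb3, and Hif1a (0.967) and Pef1 (0.954) for Tgfbr1. For the other members they were Col4a2 (0.991) and Col4a1 (0.990) for Tgfbr2, Plcxd2 (0.977) and Lrrc32 (0.974) for Smad3, Nedd4 (0.965) and Zfp90 (0.924) for Smad7, and 4930564D02Rik (0.952) and Serinc3 (0.950) for Tgfb1i1. Col4a1 and Col4a2 code for chains of type IV collagen and are neighbours with shared windows. Lrrc32 codes for a protein that anchors latent TGF-beta and Nedd4 for a ubiquitin ligase. The points share libraries, list lengths and stages, and an r of 0.9 was exceeded by 487 genes with Tgfbr2, 274 with Smad3, 130 with Tgfb3, 107 with Tgfb2, 97 with Tgfbr1, 89 with Tgfb1i1, 11 with Smad7 and 11 with Tgfb1.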

How the data were processed

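H3K27ac and KLF4 ChIP-seq of reprogramming mouse cells was analysed from 22 peak lists, 1 per library, which the authors deposited without read counts. Per the submitters' processing notes the build was mm10 (GRCm38) and the tools included cutadapt 1.8.1, Bowtie2 2.2.5, deepTools 2.3.6 and MACS2 2.1.1, with no settings given in the sources used here. Each deposited list gives per peak a score, a fold (ratio) over background, the −log10 of a p-value and the −log10 of a q-value, and the score is the whole part of 10 times the −log10 p. The lists ended at a −log10 p between 2.001 and 2.087, and 35.1% to 89.7% of their peaks had a q-value of at most 0.01. The 13 input libraries were not analysed here. The submitters call the replicates biological, and no source used here says that they come from separate embryos or cultures, so p-values measure the spread between these libraries.

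For each of 21631 protein-coding genes of the RefSeq gene table (GRCm38.p6) the base pairs under peaks within the gene and 50 kb to each side were summed, divided by the Mb covered by the whole list, and taken as log2 after adding 10. Genes with a peak in at least 2 libraries entered a fit per mark with a mean per stage (limma 3.58.1 in R 4.3.3, moderated test, two-sided, Benjamini-Hochberg adjustment over 19778 genes for H3K27ac and 18861 for KLF4, threshold 0.05). The fit was tested on simulated data, and the outcome is not given here. Regions are merged peaks found in at least 2 libraries of a stage (overlap of 1 bp). Markers were read within 2.5 kb of a gene. Tables were made with Python 3.11.15 and pandas 2.3.3. Values are given for all 8 genes; regions are named where they were in every library or in every library of 1 end stage and none of the other (the 4 widest if more), and of each pathway list up to 3 genes with the smallest p between ESC and MEF and those called for KLF4. The members, lists and rules were chosen with earlier results of these data known. Alternatives were no scaling, equal numbers of top peaks, a q-value limit of 0.01, numbers of peaks, other pseudocounts, no filter, narrower windows, a batch covariate, a replicate block and leaving out each library. Sequences and starts are from RefSeq tables, which matched 5 of the 8 members.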

Additional observations from a re-analysis of the deposited data

How the results depend on the processing

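For the differences of single genes that passed the test, and all 8 between MEF and ESC, 207 values under other settings kept their direction and side of the threshold, 53 were no longer past it, 2 came past it and 5 were reversed; when single libraries were left out, 71 kept both and 38 were no longer past it. Among these the reversed values were Tgfbr2 between day 3 and MEF (-0.81 without scaling), Tgfb1 between day 9 and day 3 (0.23 without scaling), Smad7 between ESC and MEF (0.82 by number of peaks) and Tgfb1 between ESC and MEF (-1.65 with 10 kb and -1.46 with 2.5 kb to each side). Of the 8 genes, 3 passed from MEF to day 3, and 8 did without scaling (all lower at day 3, among them Tgfb1 and Tgfb1i1, whose scaled differences of 0.04 and 0.11 had not passed), 5 with equal numbers of top peaks, 1 at a q-value of 0.01 and 1 by number of peaks. In the last 3 settings the medians over all genes were 0.021, 0.0845 and 0.15, and 57.4%, 61.9% and 65.8% of called genes were higher. The share of all genes that passed is not given beside these counts or the next ones, so they have no background. From day 3 to day 9 the count of 6 became 2 without scaling, 3 with top peaks and 1 by number of peaks, and from day 9 to ESC the count of 5 became 3 by number of peaks and with 10 kb. For KLF4 from day 3 to day 9 the count of 1 became 0 without scaling, at the q-value limit, by number of peaks, with 2.5 kb and with batch as a covariate (2 to 3 members then had an unadjusted p under 0.05 in limma), and 2 with a pseudocount of 50. For KLF4 from day 3 to ESC the count of 2 became 1 without scaling, at the q-value limit, with a pseudocount of 2, with 10 kb and with 2.5 kb, and 0 by number of peaks (3 at an unadjusted p under 0.05). Without scaling, the median over all genes moved to -1.01 from MEF to day 3 and 0.713 from day 3 to day 9, and the share of called genes that were higher went from 61.1% to 2.38% and from 67.7% to 94.3%. It went from 58.7% to 44.9% between MEF and ESC, from 41.7% to 63.6% between day 9 and ESC and from 59.6% to 24.7% for KLF4 between day 3 and ESC. The cause of these shifts was not tested.

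Leaving out 1 library gave 6 to 7 members between MEF and ESC, 2 to 3 from MEF to day 3, 2 to 4 from day 3 to day 9, 3 to 4 from day 9 to ESC, 0 to 1 for KLF4 from day 3 to day 9 and 0 to 2 from day 3 to ESC. Where a stage kept 1 library, that library was assumed to vary like the others. The share of all genes that passed is not given beside these counts. Replicate numbers within batch DG-3458 did not pair the libraries (correlations of deviations -0.0075 to 0.0331). With a replicate block 7 members passed between MEF and ESC, also with the day 6 numbers exchanged, since the peak names in those lists carry the other number, and 2 from MEF to day 3, where Tgfb2 was lost (adjusted p = 0.0725).

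Region counts moved as well. The shares over all regions were not recomputed for these settings, so the class counts below have no background. H3K27ac regions numbered 228 with peaks from any library and 39 with top peaks, of which 9 were then in all libraries, 24 in MEF without ESC and 1 in ESC without MEF, a class of 14 at the q-value limit. KLF4 regions numbered 94 from any library and 26 at the q-value limit, where 0 were in all libraries, 8 at day 3 without serum ESC and 4 in serum ESC without day 3. Without 1 library, H3K27ac regions ranged from 133 to 188, those in all libraries from 14 to 15, MEF without ESC from 76 to 124 and ESC without MEF from 22 to 40. KLF4 regions then ranged from 43 to 67, those in all libraries from 3 to 4, day 3 without serum ESC from 13 to 37 and serum ESC without day 3 from 9 to 14. Where a stage kept 1 library, the looser rule given above for regions applied. Read depth is unknown, so a missing peak may lie under a list's threshold.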

Other observations

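KLF4 peaks of the V6.5 cells under 2i, which were not a side of any tested comparison above, covered 1.86 and 1.85 kb around Smad3 where serum ESC had 0.429 and 1.09 kb. They covered 3.36 and 2.72 kb around Smad7, against 1.29 and 3.29 kb in serum. Around Tgfbr2 and Tgfb2 the EA-3702 2i library and the EA-2697 serum library both had no KLF4 peak, and the other libraries had 0.171 and 0.136 kb around Tgfbr2 and 0.146 and 0.262 kb around Tgfb2. No batch holds both media, so their effects cannot be told apart, and no test was made.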
